A study of Saccharomyces cerevisiae with 12 samples.

Results

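The heat change of Mex67 enrichment over background is a difference of differences in budding yeast: Mex67 immunoprecipitates against untagged controls at 42 °C, minus the same difference at 25 °C. It used 8 of the 12 libraries of the series, chosen by their titles: 2 of Mex67 and 2 of the no-tag control at each temperature. Of the 7126 counted features, 5245 had enough reads to be tested, and every one of them was a member whatever its value. A positive value on the log2 scale means that a transcript stood higher over the no-tag level after heat than before it, and a negative value means that it stood lower.

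The series asked how RNA binding to export factors differs between normal growth and heat stress, with RNA co-immunoprecipitation followed by sequencing. Cells of strain HKY1266 (Mex67 immunoprecipitate) or of the strains labelled HKY36/HKY381 (no tag, no protein targeted) were grown at 25 °C in YPD, a rich medium. Each culture was then split and held at 25 °C or 42 °C for 30 min before UV cross-linking. Lysates went onto c-myc antibody beads and GFP-Trap beads, and the sources used here do not say which beads served which strain, nor which of the 2 no-tag strains gave which library. Neither poly(A) selection nor rRNA depletion was used. The remaining 4 libraries of the series, of the protein Npl3, entered the fit for its estimate of spread, and also counted in the scaling and in the filter on low counts.

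Mex67 works with its partner Mtr2 as the main export receptor for messenger RNA in yeast, carrying messages through the nuclear pore. It does not pick most messages by itself: adaptor and guard proteins such as Npl3, Gbp2, Hrb1, Nab2 and Yra1 bind the maturing transcript and pass it on. On heat shock, yeast shuts down much of its housekeeping gene expression, and the factors Hsf1, Msn2 and Msn4 switch on genes for chaperones and other protective proteins.

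No feature passed the test: edgeR's quasi-likelihood test called 0 higher and 0 lower of 5245 features at a Benjamini-Hochberg adjusted p below 0.05 (0% called in each direction), with a lowest adjusted p of 0.996. At an unadjusted p below 0.05, 114 features (2.17%) were higher and 72 (1.37%) lower, together 3.55% of those tested. DESeq2 and 22 other settings also called 0 features. The median standard error was 0.75 on the log2 scale over all features and 0.65 over the 1635 features with a mean of at least 50 counts. The values that follow therefore describe these libraries, and none of them is a called change. The 2 libraries of a group are biological replicates per the series' design text.

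The libraries differed in depth, and 1 of them was small. Counts assigned to features ranged from 354440 to 889402 in 7 of the 8 libraries, while the heated no-tag library of culture 1 held 87741. There 1 count was worth 16.7 CPM (counts scaled to a common library size, here with edgeR's TMM factors), and 813 tested features had 0 counts, against 2 to 70 in the others. A level of 50.2 CPM in that library, as for BTN2, SEM1, YHL008C and MTR2 below, is 3 counts. The levels of SLT2, HSF1, PST1 and GCV1 there also rest on few counts. Culture 1 and culture 2 also differed in strain markers within each group: LEU2, a leucine synthesis gene often deleted in laboratory strains, stood at 406 to 1378 CPM in all 4 libraries of culture 1 and at 0 to 16 in those of culture 2. STE2, a mating receptor gene of one mating type, stood at 0 to 7.75 CPM in culture 1 and at 126 to 356 in culture 2. Because the heated no-tag library of culture 1 was small, values without no-tag culture 1 are given beside many of the gene lists and genes below. They are not given beside all of them. Such values set culture 2 alone as control against both Mex67 cultures, so the marker difference is then unbalanced between the groups. Without no-tag culture 1, 80 of the 127 genes named by rule moved by over 1.5 times or turned sign, and 103 did so when some single library was left out. Reads that fit paralogous genes or overlapping and antisense genes may have been shared between them, since the counting settings for both are not given in the sources used here.

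Because each culture was split, its own heat change can be read as log2 CPM at 42 °C minus that at 25 °C. In 1137 features (21.7%) the heat changes of both Mex67 cultures lay above those of both no-tag cultures, and in 964 features (18.4%) they lay below. Against no-tag culture 2 alone, both Mex67 cultures lay above in 1708 features (32.6%) and below in 1920 (36.6%). These shares are the background for the gene lists. The median over all features was 0.08, with 2842 of 5245 above 0.

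**Figure D1:**
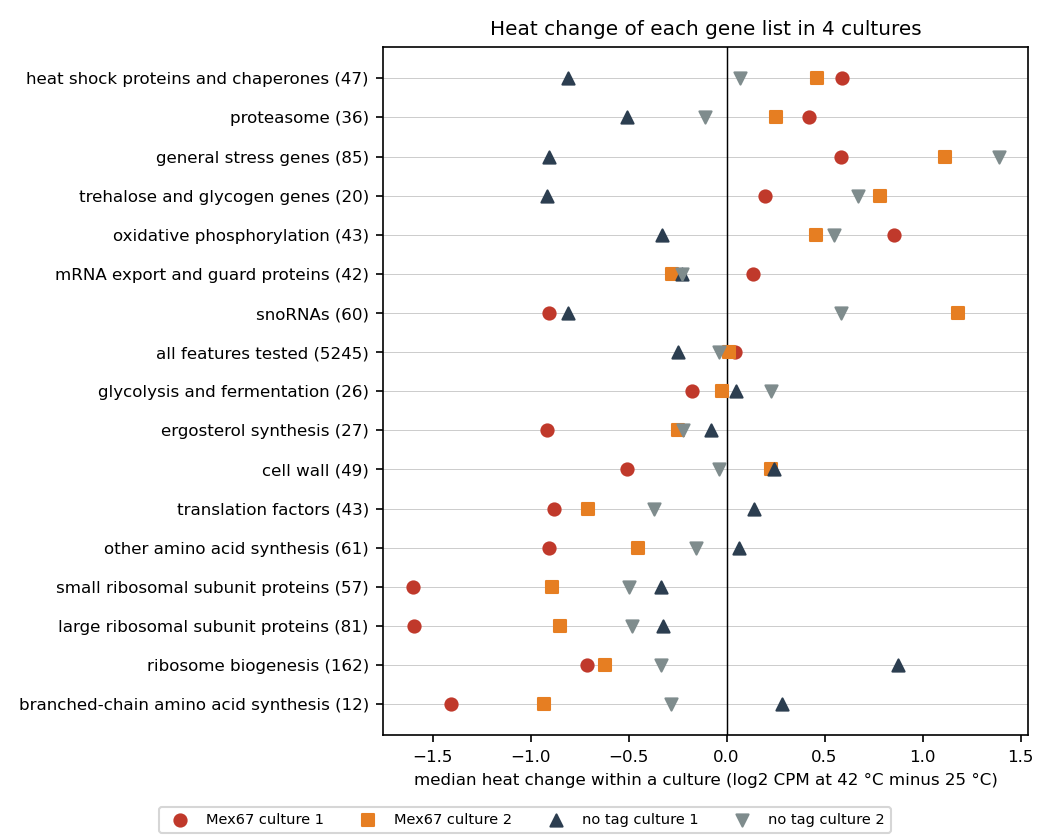
Median heat change (log2 CPM at 42 °C minus 25 °C, horizontal axis) of each gene list in each of 4 cultures; the number of members tested is in parentheses. For heat shock proteins and the proteasome both Mex67 cultures lie to the right of both no-tag cultures, and for ribosomal proteins, ribosome biogenesis and branched-chain amino acid synthesis they lie to the left.

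Messages for heat shock proteins and chaperones had the highest median of the protein-coding lists. Of 47 members tested, 37 were above 0, with a median of 0.85 against 0.08 over all features. Both Mex67 cultures lay above both no-tag cultures in 25 members (53.2%, background 21.7%) and below them in 2. At an unadjusted p below 0.05, 6 members were higher (12.8%, background 2.17%) and 0 lower. The members' median heat change was 0.59 and 0.46 in the Mex67 cultures, and -0.81 and 0.07 in the no-tag cultures. Their median enrichment over no tag was -0.36 at 25 °C and 0.62 at 42 °C. Without no-tag culture 1 at both temperatures the median was 0.57, with 36 members above 0, and over the 34 members with a mean of at least 50 counts it was 1.54. It was 1.45 without the heated no-tag library of culture 2. These are bulk samples, in which fewer cells carrying a message and less of it per cell cannot be told apart.

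HSP26 (YBR072W, chromosome II, 382030 to 382674, build R64) encodes a small heat shock protein that holds unfolding proteins. Its no-tag level was 56.8 CPM at 25 °C and 301 at 42 °C in culture 1, and 303 and 3553 in culture 2. In the Mex67 immunoprecipitates it stood at 142.2 and 8048 in culture 1 and at 67.9 and 10241 in culture 2. All 4 cultures were higher at 42 °C, and both heated Mex67 libraries stood above both heated no-tag libraries, whereas at 25 °C the groups overlapped. The interaction was 2.99 ± 1.63 (log2, SE, unadjusted p = 0.0925, edgeR adjusted p = 0.996), and 2.89 without no-tag culture 1. It was 1.38 without the no-tag library of culture 2 at 25 °C and 5.64 without the heated one. SSA4, the most strictly heat-inducible of the cytosolic Hsp70 chaperones, stood at 222 and 318 CPM in no-tag culture 1 and at 267 and 901 in no-tag culture 2 (25 °C, then 42 °C). With Mex67 it stood at 215 and 2944 in culture 1, and at 98.4 and 1544 in culture 2. As for HSP26, both heated Mex67 libraries stood above both heated no-tag libraries. Its interaction was 2.48 ± 1.20, and 2.08 without no-tag culture 1.

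HSP12, which encodes a small membrane-protecting stress protein, had another pattern. Its no-tag level was 254 and 301 CPM in culture 1 and 225 and 4337 in culture 2, and its Mex67 level was 62 and 2428 in culture 1 and 42.2 and 2155 in culture 2. At 25 °C both Mex67 libraries stood below both controls, while at 42 °C they lay between them. The interaction of 2.17 ± 1.34 thus went from an enrichment of -2.20 at 25 °C to -0.04 at 42 °C, and it was 1.19 without no-tag culture 1.

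Cochaperones and organelle chaperones were among the features with the lowest unadjusted p at these counts. CPR6 (YLR216C, chromosome XII, 572096 to 573211), a cyclophilin that works with Hsp90, stood at 574 and 251 CPM in no-tag culture 1 and at 383 and 635 in no-tag culture 2. Its Mex67 levels were 289 and 1388 in culture 1 and 330 and 1195 in culture 2. Both Mex67 libraries were below both controls at 25 °C and above both at 42 °C. Its interaction was 2.12 ± 0.84 (unadjusted p = 0.025), and 1.33 without no-tag culture 1. HSP10 (YOR020C, chromosome XV, 370524 to 370844), the mitochondrial chaperonin cofactor, stood at 341 and 184 CPM in no-tag culture 1, 151 and 330 in no-tag culture 2, 95.6 and 715 in Mex67 culture 1, and 208 and 576 in Mex67 culture 2. At 25 °C the groups overlapped, and at 42 °C both Mex67 libraries were above both controls. The interaction was 1.97 ± 0.77 (unadjusted p = 0.0236), and 0.97 without no-tag culture 1.

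BTN2 (YGR142W, chromosome VII, 772454 to 773686), which encodes a factor that gathers misfolded proteins, had the largest positive interaction of the 24 features named for the lowest unadjusted p, at 3.22 ± 1.16 (unadjusted p = 0.0176). Its no-tag levels were 471 and 50.2 CPM in culture 1, the second of these from 3 counts, and 113 and 64.2 in culture 2. With Mex67 they were 212 and 446 in culture 1 and 91.4 and 127 in culture 2. Both controls were lower at 42 °C than at 25 °C and both Mex67 cultures higher. Without no-tag culture 1 the interaction was 1.73. APJ1, a gene for a J-domain cochaperone, stood at 87 and 0 CPM in no-tag culture 1, so its interaction of 2.12 ± 0.97 depends on a library with 0 counts. It was 0.70 without that culture.

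**Figure D2:**
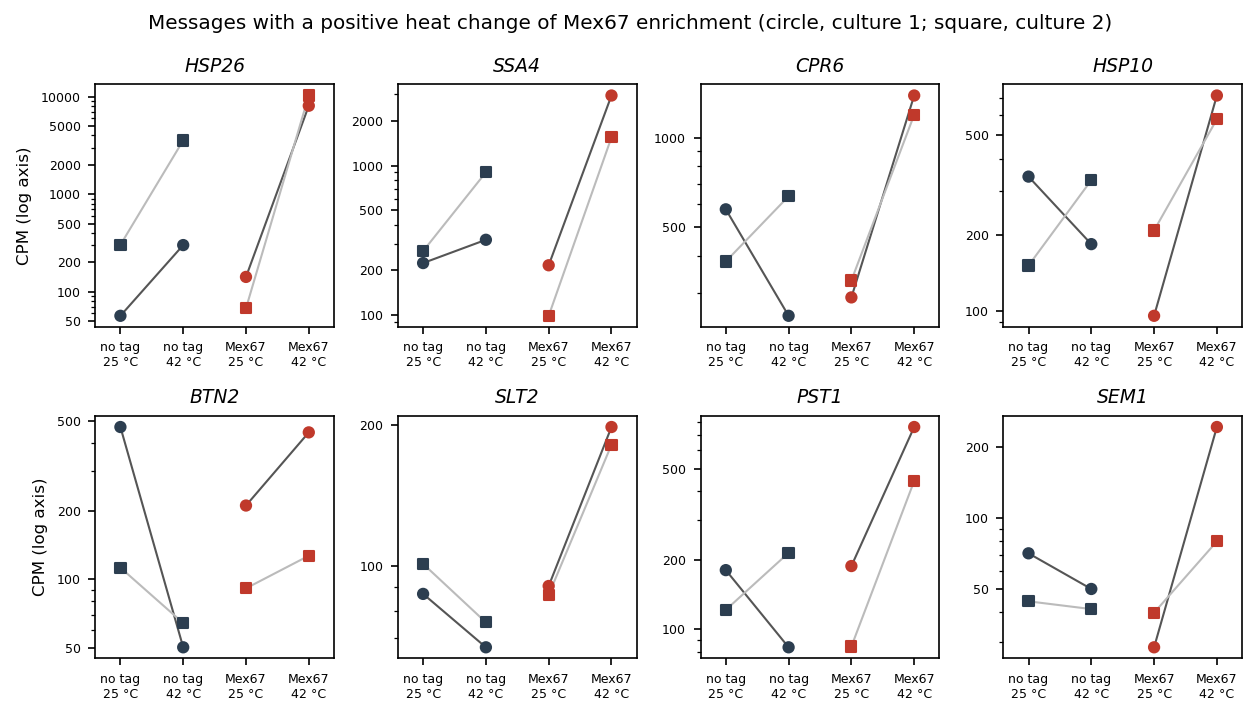
CPM (log axis) of 8 messages in each no-tag (dark blue) and Mex67 (red) library at 25 °C and 42 °C, with lines joining the libraries of a culture (circles, culture 1; squares, culture 2). The Mex67 lines climb more steeply than the no-tag lines in every panel, and in 6 panels the no-tag line of culture 1 or of both cultures goes down.

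Other well-known members differed in size and order. HSP104, the disaggregase, stood at 2412 and 1154 CPM in no-tag culture 1 and 1786 and 2679 in no-tag culture 2, and at 1954 and 3871 in Mex67 culture 1 and 1003 and 3072 in Mex67 culture 2. Its interaction was 1.35 ± 0.83, and 0.64 without no-tag culture 1. HSP82 and HSP42, for an Hsp90 and a small heat shock protein, had interactions of 1.93 ± 1.04 and 1.86 ± 1.10 (1.10 and 1.07 without no-tag culture 1). HSP78 and SIS1, for a mitochondrial disaggregase and a J-domain protein, had 1.65 ± 0.70 and 1.57 ± 0.70 (1.05 and 1.21 without it). Not every chaperone message had a positive value. SSA1, for a constitutive Hsp70, stood at 0.76 ± 0.96 and at -0.06 without no-tag culture 1. SSC1, the mitochondrial Hsp70 gene, stood at -0.27 ± 0.76. LHS1, for a chaperone of the endoplasmic reticulum, stood at -0.43, and PPT1, for a phosphatase that acts on Hsp90, at -0.90 (-0.16 and -0.39 without that culture).

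The messages of the heat shock transcription factors themselves were also present. HSF1, for the factor that drives chaperone genes, stood at 85.2 and 66.9 CPM in no-tag culture 1 and 116 and 105 in no-tag culture 2, against 111 and 235 in Mex67 culture 1 and 124 and 198 in Mex67 culture 2. The Mex67 libraries at 42 °C were the highest of the 8. The interaction was 0.99 ± 0.58 (unadjusted p = 0.112). MSN2 and MSN4, for the general stress factors, had 0.13 ± 0.64 and 0.65 ± 0.79.

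The general stress genes, which Msn2 and Msn4 control, were not placed like the chaperones. Of 85 members, 55 were above 0 and the median was 0.24. Both Mex67 cultures lay above both controls in 14 members (16.5%, background 21.7%). The members' median heat change was 0.59 and 1.11 in the Mex67 cultures, but -0.91 in no-tag culture 1 and 1.39 in no-tag culture 2. Without no-tag culture 1 the median was -0.55 with 21 members above 0, and both Mex67 cultures lay below no-tag culture 2 in 49 members (57.6%, background 36.6%). DDR2, a stress gene of this list, had an interaction of 3.58 ± 2.05 with both controls and -0.36 without no-tag culture 1. The direction for this list thus turned with 1 control culture, and the median was 1.58 without the heated no-tag library of culture 2 and -0.14 without the heated Mex67 library of culture 1. CTT1, for cytosolic catalase, stood at -0.14, and MSC1 and HBT1 at -1.10 and -1.37, which became 0.56 and 0.72 without the heated no-tag library of culture 2. The 20 trehalose and glycogen genes, for storage sugars that build up in stress, had a median of 0.01. It was -0.62 without no-tag culture 1, and 1.61 without the heated no-tag library of culture 2.

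Proteasome genes, whose products form the main protein-degrading complex, had a median of 0.61, with 34 of 36 members above 0. Both Mex67 cultures lay above both controls in 24 members (66.7%, background 21.7%) and below them in 0. At an unadjusted p below 0.05, 2 were higher (5.56%, background 2.17%) and 0 lower. Their median heat change was 0.42 and 0.25 in the Mex67 cultures and -0.51 and -0.11 in the no-tag cultures. Without no-tag culture 1 the median was 0.44 with 29 members above 0. SEM1 (YDR363W-A, chromosome IV, 1202128 to 1202397) encodes a small protein shared by the proteasome lid and the TREX-2 export complex. It stood at 71 and 50.2 CPM in no-tag culture 1 and 44.5 and 41.3 in no-tag culture 2, against 28.4 and 243 in Mex67 culture 1 and 39.8 and 79.8 in Mex67 culture 2. Both Mex67 libraries were the lowest at 25 °C and the highest at 42 °C, where the level in no-tag culture 1 came from 3 counts. The interaction was 2.68 ± 0.83 (unadjusted p = 0.00656), and 2.36 without no-tag culture 1 but 1.65 without the heated Mex67 library of culture 1. PRE3, for a catalytic subunit, had 1.32 ± 0.56 (unadjusted p = 0.0328), RPN4, for the factor that induces proteasome genes, 0.71 ± 0.64, and PRE2, for another catalytic subunit, -0.26.

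**Figure D3:**
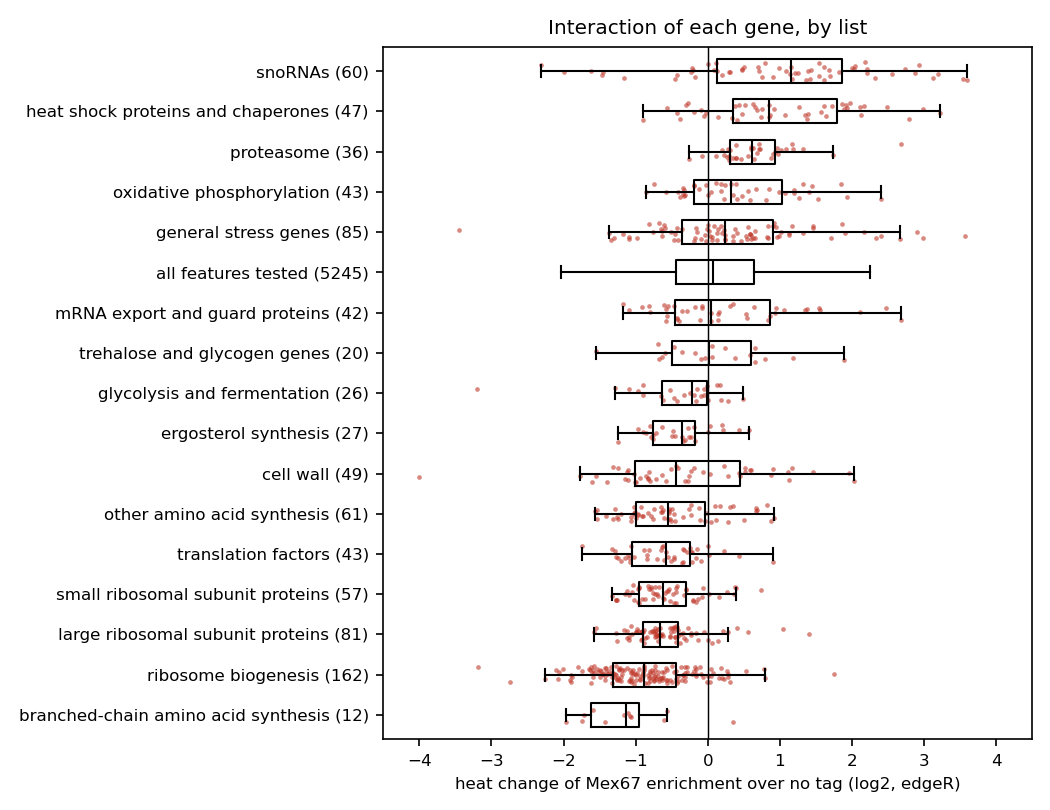
Interaction (log2, edgeR; horizontal axis) of each member of each list as a point, with boxes for the quartiles and whiskers to the farthest value within 1.5 box lengths; for all 5245 features only the box is drawn. The boxes of heat shock proteins and the proteasome lie above 0, and those of ribosomal proteins, ribosome biogenesis and branched-chain amino acid synthesis below it.

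The cell wall genes lay mostly on the other side: 17 of 49 members were above 0, with a median of -0.44, and 0.11 without the Mex67 library of culture 1 at 25 °C. Both Mex67 cultures lay below both controls in 16 members (32.7%, background 18.4%) and above them in 9 (18.4%, background 21.7%), and 2 members were higher and 2 lower at an unadjusted p below 0.05. The highest members, SLT2 and PST1, were among the 12 higher features named by unadjusted p. SLT2 (YHR030C, chromosome VIII, 168890 to 170344) encodes the MAP kinase of that pathway, which responds to stress on the cell wall. It stood at 87 and 66.9 CPM in no-tag culture 1 and 101 and 75.6 in no-tag culture 2, against 90.5 and 198 in Mex67 culture 1 and 86.7 and 181 in Mex67 culture 2. At 25 °C all 4 libraries were close together, and at 42 °C both Mex67 libraries stood above both controls. The interaction was 1.46 ± 0.51 (unadjusted p = 0.0129) and 1.51 without no-tag culture 1, so it did not rest on the small library. PST1, for a cell wall protein, stood at 181 and 83.6 CPM and 122 and 215 in no-tag cultures 1 and 2, and at 189 and 759 and 84.3 and 442 in Mex67 cultures 1 and 2. Here too the heated Mex67 libraries were the highest of the 8. Its interaction was 2.03 ± 0.72, and 1.31 without no-tag culture 1. In no list, YHL008C (chromosome VIII, 92627 to 94510), an open reading frame with no standard gene name, stood at 87 and 50.2 CPM and 74.2 and 55 in no-tag cultures 1 and 2, and at 103 and 260 and 72.6 and 218 with Mex67. Its unadjusted p of 0.00299 was the lowest of these 12 features, at an interaction of 2.03 ± 0.56. Without no-tag culture 1 the interaction was 1.87.

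Messages for amino acid synthesis lay on the negative side. Of the 12 branched-chain genes, which make leucine, isoleucine and valine, 11 were below both controls in both Mex67 cultures (91.7%, background 18.4%). The 12 include LEU2, the marker whose level differed between culture 1 and culture 2. Its interaction of -0.57 ranged from -10.63 to 7.2 across alternatives. Only 1 of the 12 genes had an interaction above 0, and the list's median was -1.13 (-0.87 without no-tag culture 1, and -0.58 without the heated library of that culture alone). At an unadjusted p below 0.05, 3 were lower (25%, background 1.37%) and 0 higher. Their enrichment over no tag was 0.07 in the median at 25 °C and -1.18 at 42 °C. The 61 other amino acid genes had a median of -0.56, with 31 below both controls (50.8%). The 21 sulfur amino acid genes had a median of 0.38 instead, but of -0.75 over the 8 members with a mean of at least 50 counts.

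ILV3 (YJR016C, chromosome X, 464451 to 466208), for dihydroxyacid dehydratase of the branched-chain pathway, stood at 1243 and 1690 CPM in no-tag culture 1 and 1059 and 816 in no-tag culture 2. With Mex67 it stood at 1298 and 227 in culture 1 and 1066 and 427 in culture 2. The groups overlapped at 25 °C, and at 42 °C both Mex67 libraries were below both controls. The interaction was -1.96 ± 0.80 (unadjusted p = 0.0282), and -1.48 without no-tag culture 1. LEU1, for the enzyme after Leu4 and Leu9 in leucine synthesis, stood at 1342 and 1823 CPM and 768 and 541 in no-tag cultures 1 and 2, and at 1163 and 247 and 1061 and 485 with Mex67. The groups lay as for ILV3. Its interaction was -1.74 ± 0.88, and -1.10 without no-tag culture 1. ILV1 and LEU9, for the first steps of isoleucine and leucine synthesis, had -1.59 ± 0.64 and -1.72 ± 0.67 (-0.95 and -1.52 without it).

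The other lower features named by unadjusted p came from several processes. DED81, for the asparaginyl-tRNA synthetase, stood at 957 and 1255 CPM and 926 and 795 in no-tag cultures 1 and 2, and at 793 and 210 and 965 and 377 with Mex67. Its interaction was -1.70 ± 0.69, and -1.36 without no-tag culture 1. YHB1, for a flavohemoglobin that detoxifies nitric oxide, stood at 293 and 301 CPM and 484 and 360 in the controls, and at 889 and 130 and 656 and 270 with Mex67. For YHB1 both Mex67 libraries were above both controls at 25 °C and below both at 42 °C. The interaction was -1.75 ± 0.67 (unadjusted p = 0.0222). The pyrimidine synthesis genes URA1 and URA7 had -1.50 and -1.96 (-1.14 and -1.26 without no-tag culture 1). The 12 lower features ranged from -1.28 to -1.96 and the 12 higher from 1.27 to 3.22, and all 24 kept their sign under every alternative tried. They were picked from these same libraries for a low p and heat changes that did not overlap, so a kept sign is no separate support. Without no-tag culture 1, 12 of the 24 moved by over 1.5 times.

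**Figure D4:**
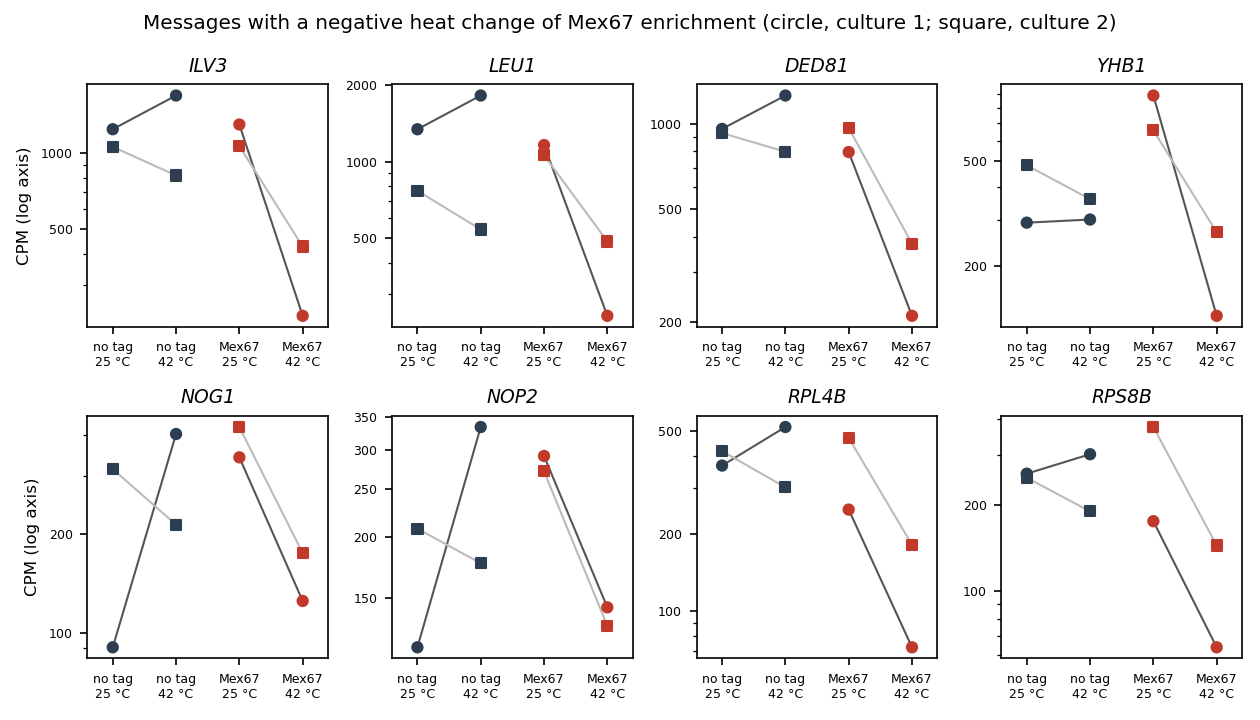
CPM (log axis) of 8 messages in each no-tag (dark blue) and Mex67 (red) library at 25 °C and 42 °C, with lines joining the libraries of a culture (circles, culture 1; squares, culture 2). In every panel both Mex67 lines go down more steeply than the no-tag lines, and the no-tag line of culture 1 goes up.

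Ribosome biogenesis messages, for the factors that build ribosomal subunits in the nucleolus, had a median of -0.88 over 162 members, with 17 above 0. Both Mex67 cultures lay below both controls in 85 members (52.5%, background 18.4%) and above them in 4. At an unadjusted p below 0.05, 21 were lower (13%, background 1.37%) and 0 higher. The members' median heat change was -0.71 and -0.62 in the Mex67 cultures, 0.88 in no-tag culture 1 and -0.33 in no-tag culture 2. Without no-tag culture 1 the median was -0.39, with 46 of 163 members above 0. Without the 25 °C no-tag library of culture 1 or of culture 2 the median was -0.51 and -1.44, so the size of this list's values rested on single no-tag libraries. NOG1 (YPL093W, chromosome XVI, 370978 to 372921), for a GTPase of the large subunit's assembly, stood at 90.6 and 402 CPM in no-tag culture 1 and 314 and 213 in no-tag culture 2. With Mex67 it stood at 341 and 125 in culture 1 and 422 and 175 in culture 2. Both Mex67 libraries were above both controls at 25 °C and below both at 42 °C. Its interaction was -1.90 ± 0.83, and -0.79 without no-tag culture 1. NOP2, for an rRNA methyltransferase, had -1.61 ± 0.58 and -0.80 without that culture. DBP3 and KRE33, for a helicase and an RNA acetyltransferase of the nucleolus, had -1.62 ± 0.63 and -1.91 ± 0.87 (-1.01 and -0.99 without it).

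Ribosomal protein messages had medians of -0.62 for the small subunit (57 members, 7 above 0) and -0.67 for the large subunit (81 members, 8 above 0). Both Mex67 cultures lay below both controls in 40 (70.2%) and 60 (74.1%) of them, against 18.4% of all features. At an unadjusted p below 0.05 there were 0 lower in the small and 1 lower in the large subunit (1.23%), near the background of 1.37%. Their enrichment over no tag was already negative at 25 °C, at -0.55 and -0.61 in the median, and was -1.20 and -1.31 at 42 °C. The 2 Mex67 cultures differed in size: the median heat change was -1.60 in culture 1 and -0.89 in culture 2 for the small subunit, and -1.59 and -0.85 for the large. Without no-tag culture 1 the medians were -0.62 and -0.59. Without the heated Mex67 library of culture 2 they were -1.81 and -1.775, without the Mex67 library of culture 1 at 25 °C -1.08 and -1.07. Without the Mex67 library of culture 2 at 25 °C they were 0.04 and -0.0015, and without the Mex67 library of culture 1 at 42 °C they were -0.09 and -0.0059.

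RPL4B (YDR012W), 1 of the 2 near-identical genes for a large-subunit protein, stood at 368 and 519 CPM and 418 and 303 in no-tag cultures 1 and 2. With Mex67 it stood at 248 and 72.5 in culture 1 and 471 and 181 in culture 2. The groups overlapped at 25 °C and did not at 42 °C. Its interaction was -1.55 ± 0.70, and -1.04 without no-tag culture 1. RPS8B had -1.32 ± 0.72 and -1.02 without that culture, and RPS27A, at 0.74 and 0.27, was among the members on the other side. The 43 translation factors had a median of -0.58, with 4 above 0 and 26 below both controls (60.5%, background 18.4%). At an unadjusted p below 0.05, 0 of them were higher and 0 lower. YEF3, for the fungal elongation factor, had -1.32 ± 1.09, and PAB1, for the poly(A)-binding protein, had -1.09 ± 0.75. GCD2, a member on the other side, had 0.23, and -0.04 without the no-tag library of culture 2 at 25 °C.

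**Figure D5:**
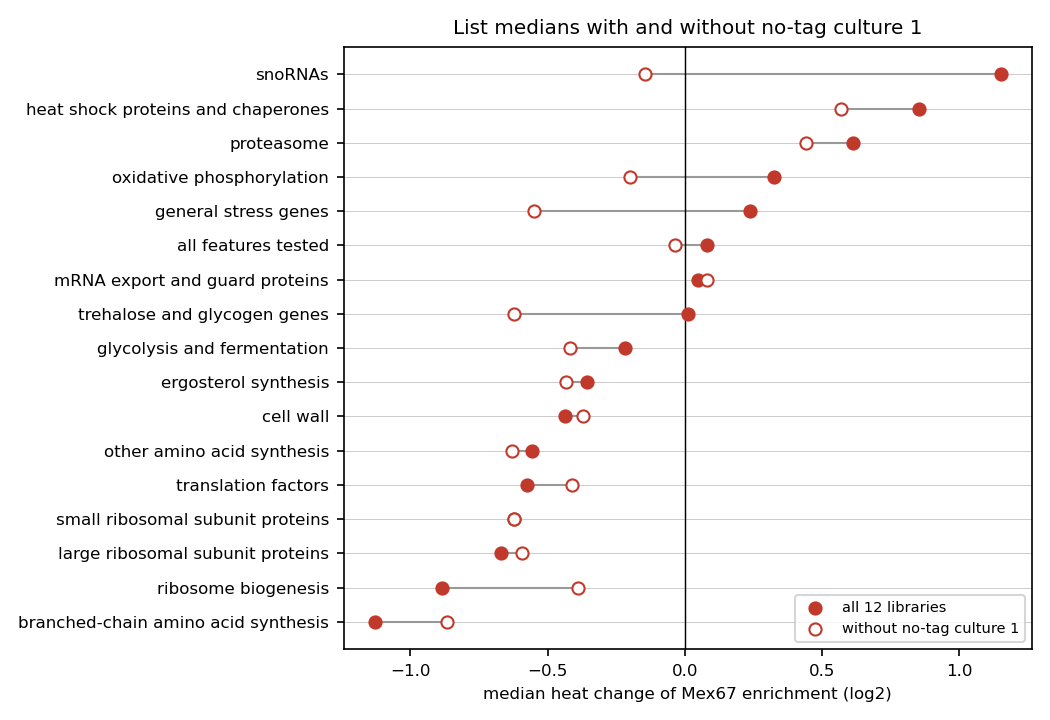
Median interaction (log2, horizontal axis) of each list over all libraries (filled circles) and without no-tag culture 1 at both temperatures (open circles). The medians of snoRNAs, general stress genes, oxidative phosphorylation, trehalose and glycogen genes and of all features cross 0, while heat shock proteins and the proteasome stay above it.

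The export machinery's own messages had no common direction. Of 42 genes for mRNA export and guard proteins, 22 were above 0 and the median was 0.05. Both Mex67 cultures lay above both controls in 15 (35.7%, background 21.7%) and below them in 9 (21.4%, background 18.4%). MEX67 itself (YPL169C, chromosome XVI, 229039 to 230838) stood at 197 and 100 CPM in no-tag culture 1 and 142.4 and 68.8 in no-tag culture 2, against 212 and 176 in Mex67 culture 1 and 112 and 92.7 in Mex67 culture 2. All 4 cultures were lower at 42 °C, the Mex67 cultures by less, and the groups overlapped at both temperatures. The interaction was 0.86 ± 0.64 (unadjusted p = 0.202). Its transcript level says nothing of how much Mex67 protein was pulled down. MTR2, for the partner of Mex67, stood at 62.2 and 50.2 CPM and 44.5 and 36.7 in the controls, and at 38.8 and 94.1 and 53.9 and 82 with Mex67. The groups overlapped at 25 °C, and at 42 °C both Mex67 libraries were above both controls, with 3 counts in no-tag culture 1. Its interaction was 1.36 ± 0.58 (unadjusted p = 0.0356). CDC31, for a TREX-2 subunit, had 2.12 ± 0.97 and GFD1, for a cofactor of Dbp5-dependent export, had 2.48 ± 1.22 (1.64 and 1.15 without no-tag culture 1). The guard protein genes NPL3, GBP2 and HRB1 had -0.17 ± 0.69, -0.07 ± 0.54 and 0.05 ± 0.64 (0.03, -0.16 and 0.73 without it). SUB2 and YRA1, for factors that load Mex67 onto messages, had -0.91 and -0.42, and YRA1 stood at 0.28 without the Mex67 library of culture 2 at 25 °C.

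Small nuclear and nucleolar RNAs depended on single libraries. The snoRNAs, guides for rRNA modification, had the highest median of all lists at 1.15, with 48 of 60 members above 0. Their enrichment was negative at both temperatures, at -1.93 at 25 °C and -0.92 at 42 °C. However, both Mex67 cultures lay above both controls in only 11 members (18.3%, background 21.7%), and the median heat change was -0.90 in Mex67 culture 1 and 1.18 in Mex67 culture 2. Without no-tag culture 1 the median was -0.14, and without the 25 °C no-tag library of culture 1 alone it was -0.87. Without the heated Mex67 library of culture 2 it was -0.42. The box-C/D RNA snR41 stood at 1721 and 251 CPM in no-tag culture 1, 237 and 199 in no-tag culture 2, 67.2 and 56.6 in Mex67 culture 1, and 150 and 399 in Mex67 culture 2. Its high level in a single library, no-tag culture 1 at 25 °C, went with an interaction of 3.20 ± 1.42, which was 1.31 without that culture. All snoRNAs together held 3.24% of the counts in the heated Mex67 library of culture 1 and 13% in that of culture 2, and 20.01% and 5.782% in the no-tag libraries of cultures 1 and 2 at 25 °C; the part of these shares in the list's values was not tested. SCR1, the RNA of the signal recognition particle, stood at 163026 CPM in the heated no-tag library of culture 1 and at 59454 in that of culture 2, against 11085 and 48836 with Mex67, and had an interaction of -1.80 ± 1.19 (-1.04 without no-tag culture 1). LSR1, the U2 spliceosomal RNA, had -2.16 ± 1.00 and snR30, a snoRNA for rRNA cleavage, -2.31 ± 1.27 (-1.01 and -0.68 without it). The U6 spliceosomal RNA, snR6, went the other way at 4.32, but stood at 0.28 without no-tag culture 1. The other spliceosomal RNAs tested, snR14 and snR19, had -0.05 and 0.06. The 4 spliceosomal RNAs had a median of 0.0024, and -0.50 without no-tag culture 1, and the 6 other stable non-coding RNAs -0.35, and the 15 transcripts of the mitochondrial genome 0.09 (0.475 without that culture).

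Energy metabolism gave smaller values. The 26 glycolysis and fermentation genes had a median of -0.22, with 6 above 0 and 11 below both controls (42.3%, background 18.4%), but the median was 0.07 when libraries were scaled by total counts only. That scaling moved the median of all features from 0.08 to 0.38, so these genes, like the nuclear pore and histone genes here, stayed below it. PGK1, for phosphoglycerate kinase, stood at -0.04 ± 0.94. The 43 oxidative phosphorylation genes had a median of 0.32, and -0.20 without no-tag culture 1. The 73 mitochondrial ribosomal protein genes had 0.40, and 0.02 without that culture, in whose heated library all 73 had fewer than 10 counts. Nuclear pore genes (51 members) had a median of -0.17, and 0.11 with total counts only. The 27 ergosterol genes, for the yeast membrane sterol, had a median of -0.36. The 11 histone genes had -0.27, and 0.05 with total counts only. The 20 strain markers had -1.42, with a median SE of 2.23, and stood at 1.02 without the Mex67 library of culture 2 at 25 °C and 0.06 without the heated no-tag library of culture 2. ACT1, for actin, and PMA1, for the plasma membrane proton pump, stood at -0.69 ± 0.79 and -0.76 ± 0.91.

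Transcript length moved with the interaction. Over 5147 coding genes the median was 0.37 in the 1288 shortest genes (78 to 813 bp), 0.05 in those of 815 to 1287 bp, -0.03 in those of 1290 to 1983 bp and -0.02 in those of 1986 to 14733 bp. Across genes, which are not independent replicates, Spearman's rho between length and interaction was -0.196. With offsets corrected for length, the heat shock median was 0.80 and the proteasome median 0.39, while those of the short ribosomal protein genes were -1.005 and -0.917. The same offsets gave a snoRNA median of 0.145, with 33 of 60 members above 0, against 1.15 without them. Oxidative phosphorylation went from 0.32 to -0.14, mitochondrial ribosomal proteins from 0.40 to 0.06, and all features from 0.08 to -0.015. How much of any value goes with length was not tested further.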

How the data were processed

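Reads were processed by the authors with CASAVA 1.8.2, STAR and featureCounts of Subread 1.5.0-p1 on build R64, and DESeq2 is also named, per the submitters' processing notes. The deposited values are raw counts of reads per feature, 1 column per library. Strand and multimapping settings are not given in the sources used here.

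Gene names came from the RefSeq table of yeast: 6048 features matched by locus tag, 119 by symbol or synonym, and 959 had no match. Counts were tested with edgeR 4.0.16 (R 4.3.3) in all 12 libraries with 1 mean per group, TMM scaling, filterByExpr (minimum 10, total 15) and a robust quasi-likelihood fit, with Benjamini-Hochberg adjustment over 5245 features at 0.05. The fit had 6 residual degrees of freedom. Heat changes within a culture used log2 CPM with a prior count of 2. The script was tested on simulated data.

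The members and the 24 gene lists were chosen with earlier results of these data known. Since 0 genes were called, a rule took the 12 features in each direction with the lowest unadjusted p. These were among features averaging 50 counts or more whose heat changes did not overlap between the groups. It also took the 2 highest and 2 lowest members of each list at that count, and a fixed set including MEX67 and heat shock genes. The text prints only part of the 127 genes taken by this rule, and leaves out PDR16, LST8 and ECM15, for example. CDC31, CTT1, GBP2, GFD1, HRB1, HSP78, MTR2, NSA2, PPT1, PRE3, RPN4, SIS1, SUB2, WIP1 and YRA1 fall outside this rule, as their values were known when they were picked. Same-numbered libraries of a strain come from 1 split culture per the labels' protocols: their deviations correlated at 0.356 (no tag) and 0.665 (Mex67), and those of same-numbered no-tag and Mex67 libraries at 0.379 (25 °C) and -0.224 (42 °C). DESeq2 1.42.0 and other scalings, filters, blocks and left-out libraries were alternatives. Promoter motifs and sequences were not analysed here. The ± SEs come from the fit and include the spread between libraries of a group, while floors cover counting error only.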

Additional observations from a re-analysis of the deposited data

Results flagged for a closer look

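In 2 lists the heat changes of the Mex67 cultures and the no-tag cultures went opposite ways. For the proteasome, the median heat change was above 0 in both Mex67 cultures and below 0 in both no-tag cultures, with a median interaction of 0.61. For glycolysis and fermentation it was -0.18 and -0.02 in the Mex67 cultures and 0.05 and 0.23 in the no-tag cultures, with a median interaction of -0.22. The -0.02 and 0.05 lie near 0, and the median heat change of all features in no-tag culture 1 was -0.25. With total counts only, the median interaction of this list was 0.07. The difference between the groups was not tested for either list as a whole.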

How the results depend on the processing

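All 23 alternatives called 0 features at an adjusted p below 0.05, and the lowest adjusted p in any was 0.524. Features at an unadjusted p below 0.05 numbered 186, and 65 to 443 across alternatives: 134 with DESeq2, 228 with a replicate block by culture, 199 with a replicate block by number and 76 without no-tag culture 1. The replicate block by culture changed no call, and the heat shock median was 0.95 with it. Over members with a mean of at least 50 counts the heat shock median was 1.54 and the proteasome median 0.85. Total counts only gave 0.93 for the proteasome, and moved the median of all features from 0.08 to 0.38. Corrected for length, the proteasome median was 0.39 and the small-subunit median -1.005. The snoRNA median without no-tag culture 1 was -0.14. Leaving out 1 library at a time, medians ranged from 0.58 to 1.45 for heat shock, -0.14 to 1.58 for general stress, -1.81 to 0.0426 for small-subunit proteins and -1.775 to -0.0015 for large-subunit proteins, and -0.87 to 1.96 for snoRNAs. The causes were not tested. Of the 127 genes named by rule, not all of them printed here, 77 kept their sign in every alternative and 50 did not. In the small heated no-tag library a count of 0 allows up to 50.2 CPM, and 4254 tested features had fewer than 10 counts there.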

Other observations

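Genes of the glycine cleavage system, which breaks down glycine for one-carbon units, were among the higher features named by unadjusted p. GCV1 stood at 92.3 and 33.5 CPM in no-tag culture 1 and 53.4 and 64.2 in no-tag culture 2 (25 °C, then 42 °C), against 95.6 and 154 in Mex67 culture 1 and 51.5 and 296 in Mex67 culture 2. At 42 °C both Mex67 libraries were above both controls. The interaction was 2.01 ± 0.69 (unadjusted p = 0.0125; 1.34 without no-tag culture 1), and that of GCV3 was 1.41 ± 0.54.

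The lowest unadjusted p of all, 0.000486, belonged to WIP1, a kinetochore protein gene with few reads, chosen here after its value was seen. No-tag counts were 9 and 6 at 25 °C and 0 and 0 at 42 °C, and Mex67 counts were 1 and 2 at 25 °C and 33 and 5 at 42 °C. A fitted fold against libraries at 0 depends on the prior count, so none is given. Of the 186 features at an unadjusted p below 0.05, 32 had a mean under 10 counts, and 39 of the 114 higher ones had 0 counts in the small heated no-tag library.

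NSA2, a ribosome biogenesis gene also chosen after its value was seen (mean 46.6 counts), stood at 63.9 and 83.6 CPM and 59.3 and 84.8 in no-tag cultures 1 and 2, and at 207 and 67.8 and 194 and 58.2 with Mex67. Both Mex67 libraries were above both controls at 25 °C and below both at 42 °C, with an interaction of -2.11 ± 0.49 (unadjusted p = 0.00079).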
